A study of Mus musculus with 22 samples.

Results

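Insulin signaling in the hippocampal CA1 region was examined through 9 genes, namely Insr, Irs1, Irs2, Akt1, Akt2, Foxo1, Foxo3, Foxo4 and Foxo6. They were taken by name, and not by a rule on measured values, from an expression matrix of 23361 genes. Earlier results of these data were known when they were chosen. All 9 were among the 16978 genes with a mean of at least 0.1 FPKM (a fragment count scaled to the length of the transcript and to the depth of the library), so all 9 were tested. Libraries, 1 per mouse and numbered from 0 within each group, came from 22 female mice of the Swiss Webster x DBA/C57BL6 F1 background that carried no engineered allele. They had been fed ad libitum (AL) or a calorie restricted (CR) diet in which only carbohydrates were cut, and were killed at 5 months (5 AL and 5 CR mice) or 15 months (6 AL and 6 CR mice). All mice started their diet at about the same age. The older mice had therefore been on it for longer, and each comparison of ages also compares times on the diet. CR mice received their food each morning and tissue was taken in mid-afternoon, so the time since the last meal belongs to the diet being compared. CA1 was dissected by hand from tissue slabs, and in such bulk tissue fewer cells of a type and less RNA per cell cannot be told apart.

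Insulin and the insulin-like growth factors bind receptor tyrosine kinases, which phosphorylate the insulin receptor substrate (Irs) adaptors. These recruit PI 3-kinase, whose lipid product brings the Akt kinases to the membrane, and active Akt phosphorylates the FoxO transcription factors and holds them out of the nucleus. Unphosphorylated FoxO factors turn on genes of stress resistance, cell cycle arrest and glucose handling. In the brain the pathway acts on neuronal survival and synaptic plasticity, and in several animals lower insulin signaling goes with longer life. An mRNA level does not show the phosphorylation of a protein, and none was measured here.

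The levels of regional marker genes moved with age in the same libraries. All 5 genes of a CA1 pyramidal neuron list (Wfs1, Fibcd1, Spink8, Pou3f1 and Mpped1) were present in every group, with summed levels of 210.0 to 467 FPKM in 5 month AL mice, 274 to 409 in 5 month CR mice, 172 to 265 in 15 month AL mice and 83.8 to 408 in 15 month CR mice. Between 5 and 15 months in AL mice 3 of the 5 fell, with a median log2 fold change of -2.02, whereas 4 of 8 neocortex and subiculum genes rose, with a median of 1.11. By the test described below, 9.97% of all tested genes fell in this comparison and 10.7% rose. The 8 neocortex and subiculum genes summed to 53.7 to 90.0 FPKM in 5 month AL mice, 38.1 to 71.0 in 5 month CR mice, 73.3 to 157 in 15 month AL mice and 42.3 to 175 in 15 month CR mice. The region score (the mean log2 level of the neocortex and subiculum list minus that of the CA1 list) spanned -4.21 to -2.55 in 5 month AL mice and -1.75 to -0.28 in 15 month AL mice. These ranges are apart, so in AL mice age and the make-up of the dissected tissue cannot be told apart. In CR mice the score spanned -4.34 to -3.43 for the younger and -4.24 to -0.84 for the older group. None of these markers was at 0 throughout a group. Median FPKM per library ran from 2.51 to 3.10.

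Foxo3 rose with age under both diets, Insr rose and Foxo4 fell with age in AL mice, and no member passed the test between the diets at either age. A log2 fold change below is the fitted difference between group means of log2(FPKM + 0.1) from limma, with its standard error (SE), and a gene passed at a Benjamini-Hochberg adjusted p under 0.05 over all 16978 genes. For age in AL mice 3 of 9 members passed, 2 higher and 1 lower at 15 months, while 20.6% of all tested genes passed, 10.7% higher and 9.97% lower. In the same comparison 3 of 9 members had libraries that did not overlap between the groups, against 14% of all tested genes. For age in CR mice 1 of 9 members passed and was higher, against 3.36% of all genes, 1.1% higher and 2.26% lower. That member also had groups that did not overlap, which held for 3.26% of all genes. The median log2 fold change over the 9 members was -0.03 with age in AL mice and 0.14 in CR mice.

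For CR against AL at 5 months limma called 0 of 9 members and 0% of all genes. At an unadjusted p under 0.05 there were 1 of 9 members and 789 genes of all. For CR against AL at 15 months 0 of 9 members passed, against 0.742% of all genes. At an unadjusted limma p under 0.05 there were 3 of 9 members and 2902 of the 16978 tested genes. No member had diet groups apart from each other at that age, which held for 0.984% of all genes. 15 month CR mice were also set against 5 month AL mice, where 0 of 9 members passed against 3.12% of all genes. An unadjusted limma p under 0.05 held there for 2 of 9 members and 3275 of the 16978 tested genes. The age by diet interaction was called by limma for 0 of 9 members and 0% of all genes, and at an unadjusted p under 0.05 for 0 members and 1301 genes of all. 15 month AL mice serve in both the AL age comparison and the diet comparison at 15 months, and each comparison's values are therefore given on their own.

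**Figure D1:**
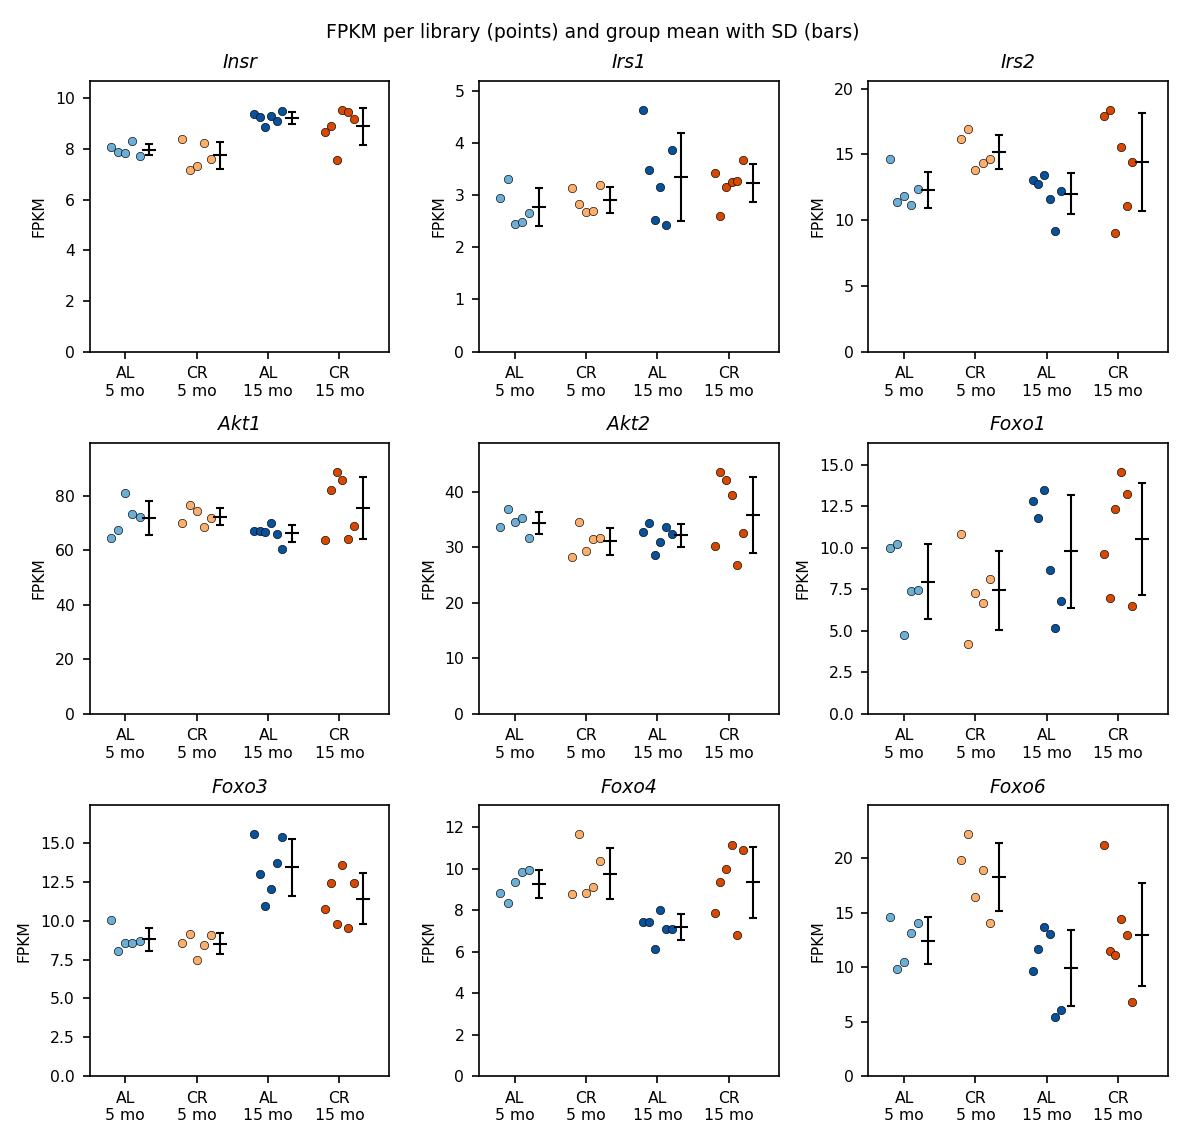
FPKM of the 9 genes (y axis, starting at 0) in each of the 22 libraries (points) by diet and age (x axis), with the group mean and SD as bars. For Foxo3 the 6 15 month AL mice lay between 10.9 and 15.6 FPKM and all 5 5 month AL mice at or under 10.1 FPKM, whereas Foxo1 and Foxo6 spread widely within every group.

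By level, Akt1 stood first in all 4 groups and Akt2 second, and in every group the libraries of the pair were apart. Over all libraries Akt1 averaged 71.4 FPKM, above 91.8% of all tested genes, and Akt2 averaged 33.4 FPKM, above 81.5%. Irs1 was the lowest member in each group and averaged 3.08 FPKM, above 31.2% of tested genes. The other 6 members averaged between 8.52 FPKM (Insr) and 13.5 FPKM (Irs2). In 5 month AL mice the order among them was Foxo6, Irs2, Foxo4, Foxo3, Insr and Foxo1, with Irs2 and Foxo4 apart and each other neighbouring pair overlapping. By 15 months in AL mice Foxo3 led these 6 at 13.4 ± 1.84 FPKM (SD, n = 6) and Foxo4 came last at 7.19 ± 0.613 (SD, n = 6), and there only Insr and Foxo4 were apart as neighbours. In 15 month CR mice all neighbours among the 6 overlapped.

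Insr encodes the insulin receptor and lies at chr8:3122061-3279617 on the minus strand (GRCm38). Its level in the 5 5 month AL mice was 8.09, 7.88, 7.86, 8.31 and 7.74 FPKM. In the 6 15 month AL mice it ran from 8.86 over a median of 9.28 to 9.52 FPKM. Every older AL mouse thus lay above every younger one, on a small and tight change: the log2 fold change was 0.21 ± 0.06 (SE, 1.16-fold), with a limma adjusted p of 0.0161. The exact permutation p was 0.00216, the smallest that 462 divisions of 5 and 6 mice allow. Within the AL groups Insr was the steadiest member, with a coefficient of variation of 2.82% at 5 months and 2.52% at 15 months, where the median gene with a mean of at least 1 FPKM had 9.60% and 12.3%.

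In the 5 5 month CR mice Insr was 8.40, 7.18, 7.32, 8.25 and 7.63 FPKM, and at 15 months it ran from 7.57 over 9.06 to 9.55 FPKM. The groups overlapped through 1 older mouse at 7.57 FPKM. Here the log2 fold change of 0.19 ± 0.06 (SE) did not pass, with a limma adjusted p of 0.0735. Without that mouse (CR library 2) it was 0.24 and passed, with a limma adjusted p of 0.0119. The interaction, which tests whether the age difference differed between the diets, was -0.02 ± 0.08 (SE), with a 95% interval from -0.19 to 0.16. Between the diets the log2 difference in Insr was -0.04 (95% interval -0.17 to 0.09) at 5 months and -0.06 (-0.18 to 0.06) at 15 months. With the region score as a covariate the AL age difference stayed at 0.20 on the log2 scale with a wider SE of 0.09, and the limma adjusted p was 0.405. The call was also lost with the choroid plexus, CA1 and dentate granule cell scores, at 0.18 to 0.23 with limma adjusted p values of 0.0593 to 0.184. Insr overlaps the antisense genes Gm16180 and Vmn2r-ps88, and with a library kit that does not keep strand the reads of such pairs cannot be told apart.

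Irs1 (chr1:82233101-82291416, minus strand, GRCm38) and Irs2 (chr8:10984681-11008458, minus strand) encode the adaptors that carry the receptor's signal to PI 3-kinase, and Irs2 is a known FoxO target. Their RefSeq promoter windows (GRCm38.p6, from 250 bases before to 50 bases after the start) are shown in part because both hold the core of an insulin response element, TGTTTTG, which FoxO factors can bind, next to an E-box, CACGTG. Capitals mark these letters and positions count from the RefSeq transcription start. For both genes that start lies upstream of the GENCODE gene bounds given above.
Irs1 chr1:82291510-82291579, minus strand, -140 to -71: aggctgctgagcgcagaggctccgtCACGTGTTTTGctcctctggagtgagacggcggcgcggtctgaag
Irs2 chr8:11008930-11008998, minus strand, -69 to -1: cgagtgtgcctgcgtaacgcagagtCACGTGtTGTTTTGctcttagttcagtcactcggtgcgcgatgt

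In Irs1 the E-box at -115 shares its last letters with the core at -111, and in Irs2 the E-box at -44 is followed by the core at -37. Searched on both strands, the core occurs in 6.28% of 32851 promoter windows, the E-box in 7.15% and both in 0.408%. The close arrangement was picked after these windows had been read. It occurs in 12 windows of 10 genes (0.0365%), Irs1 and Irs2 among them. Windows of 6 of the 9 members were at hand, without Insr, Foxo4 and Foxo6. A match of letters is a description of the window and not of binding.

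Irs1 in the AL mice was 2.95, 3.30, 2.45, 2.48 and 2.65 FPKM at 5 months and ran from 2.42 over 3.32 to 4.63 FPKM at 15 months. The older AL mice spread the most, with a coefficient of variation of 25.1%, and reached both below and above the younger ones. The log2 fold change with age was 0.24 ± 0.14 (SE, limma adjusted p = 0.222) in AL mice and 0.14 ± 0.14 (adjusted p = 0.624) in CR mice. Irs1 differed by 0.07 between CR and AL at 5 months (95% interval -0.23 to 0.37) and by -0.02 at 15 months (-0.30 to 0.25). The latter changed sign under both rescalings of the libraries. Irs1 overlaps the antisense gene Gm9747.

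Irs2 in the 5 month CR mice was 16.2, 16.9, 13.8, 14.3 and 14.6 FPKM, against 14.6, 11.4, 11.9, 11.2 and 12.3 FPKM in the AL mice. All 5 CR mice lay above the AL median and the groups overlapped through 1 AL mouse. The log2 difference was 0.31 ± 0.15 (SE) with a limma adjusted p of 1, and the exact permutation p, unadjusted among 45 such tests, was 0.0238. At 15 months Irs2 ran from 9.19 over 12.5 to 13.5 FPKM in AL mice and from 9.04 over 15.0 to 18.4 FPKM in CR mice. The CR range held the whole AL range within it, and the log2 difference of 0.23 ± 0.14 (SE) had a limma adjusted p of 0.426. Irs2 differed with age by -0.03 in AL mice (95% interval -0.34 to 0.27) and by -0.11 in CR mice (-0.42 to 0.19). Irs2 made up 78.4% to 83.9% of the summed Irs1 and Irs2 FPKM as group means. It overlaps the antisense gene 9530052E02Rik.

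Akt1 (chr12:112653821-112674884, minus strand, GRCm38) and Akt2 (chr7:27591552-27640826, plus strand) encode the serine/threonine kinases between the receptor and the FoxO factors. Akt1 acts broadly in growth and survival and Akt2 is best known for glucose uptake. A part of the Akt1 promoter window is shown because it was the only window among those of the 6 matched genes to hold the FoxO consensus GTAAACA or its complement TGTTTAC, which occurs in 3.65% of all windows. Capitals mark the match at -161.
Akt1 chr12:112675001-112675070, minus strand, -186 to -117: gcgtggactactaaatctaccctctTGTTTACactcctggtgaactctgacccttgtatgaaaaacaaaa

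Akt1 was 64.6, 67.4, 81.0, 73.5 and 72.2 FPKM in 5 month AL mice and 70.2, 76.6, 74.4, 68.7 and 72.0 FPKM in CR mice of that age. At 15 months it ran from 60.6 over 66.8 to 70.0 FPKM in AL mice and from 63.7 over 75.4 to 88.7 FPKM in CR mice. The 6 older CR mice fell into 3 at or under 68.9 FPKM and 3 from 81.9 to 88.7 FPKM, and the upper 3 lay above every AL mouse of both ages. The log2 difference of CR against AL at 15 months was 0.18 ± 0.08 (SE), with an unadjusted p of 0.0368, a limma adjusted p of 0.260 and an exact permutation p of 0.121. With the region score as a covariate the same difference was 0.04 ± 0.06 (SE). Akt1 differed with age by -0.11 in AL mice (95% interval -0.28 to 0.06) and by 0.05 in CR mice (-0.12 to 0.22), and the first value turned to 0.22 with the region score as a covariate.

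Akt2 was 33.7, 37.0, 34.5, 35.3 and 31.6 FPKM in 5 month AL mice and 28.3, 34.5, 29.4, 31.4 and 31.7 FPKM in CR mice. At 15 months it ran from 28.6 over 32.6 to 34.3 FPKM in AL mice and from 26.8 over 36.0 to 43.6 FPKM in CR mice. The 3 older CR mice highest for Akt1 were also the 3 highest for Akt2. The log2 difference between diets was -0.15 ± 0.11 (SE) at 5 months and 0.13 ± 0.10 at 15 months, and the interaction of 0.28 ± 0.14 (SE) had an unadjusted p of 0.0596 and a limma adjusted p of 0.654. Neither age difference of Akt2 passed, with -0.10 in AL mice and 0.19 in CR mice.

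**Figure D2:**
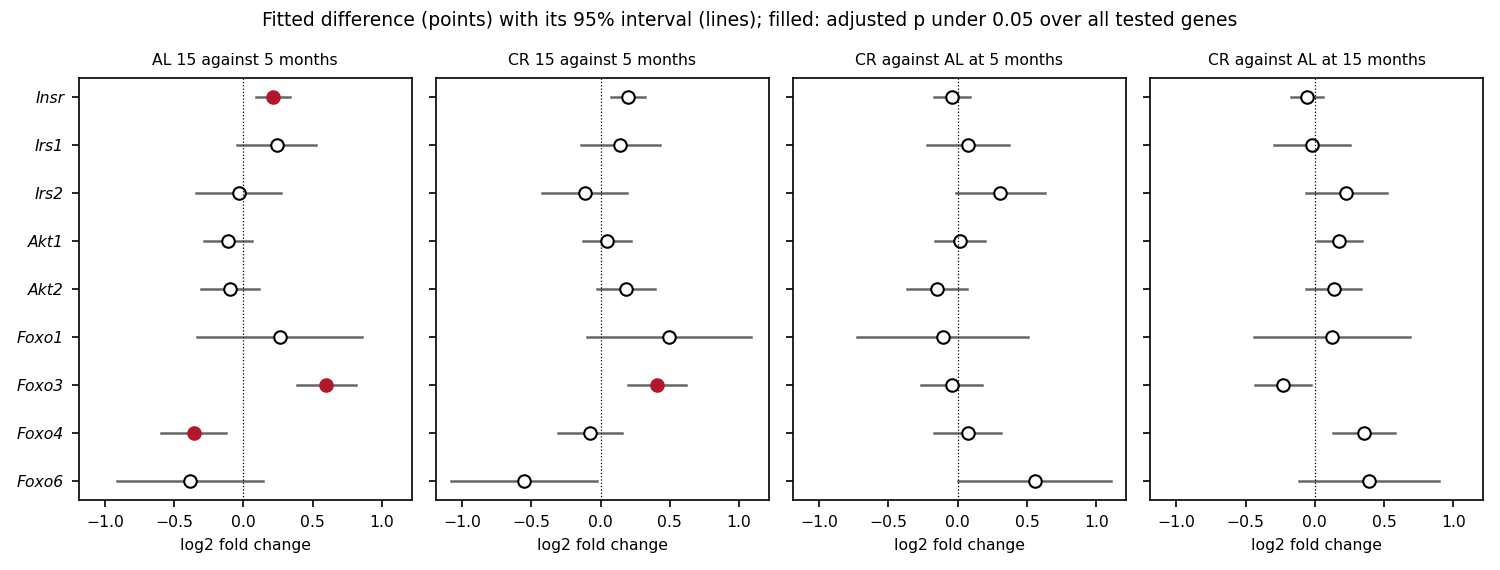
Fitted log2 fold change (x axis) of each of the 9 genes (y axis) in 4 comparisons, with the 95% interval as a line and filled points where the limma adjusted p was under 0.05. Filled points are Insr, Foxo3 and Foxo4 with age in AL mice and Foxo3 with age in CR mice, and none lies in either diet comparison.

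Foxo3 (chr10:42181841-42276755, minus strand, GRCm38) encodes the FoxO factor most often tied to longevity, which acts in stress resistance and in the maintenance of neural stem cells. In 5 month AL mice it was 10.1, 8.03, 8.56, 8.58 and 8.72 FPKM. At 15 months it ran from 10.9 over 13.3 to 15.6 FPKM. Each older AL mouse was above each younger one, and Foxo3 rose by 0.60 ± 0.10 on the log2 scale (SE, 1.51-fold), the largest size among the 9 members in this comparison. The limma adjusted p was 7.5e-04 and the exact permutation p was 0.00433.

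In CR mice Foxo3 was 8.55, 9.11, 7.46, 8.45 and 9.07 FPKM at 5 months and ran from 9.53 over 11.6 to 13.6 FPKM at 15 months. Again no library overlapped, and the rise was 0.41 ± 0.10 on the log2 scale (SE, 1.33-fold), with a limma adjusted p of 0.0288 and an exact permutation p of 0.00649. This call was lost when CR library 0, 2 or 3 at 5 months or library 1 or 5 at 15 months was left out, where the rise was 0.36 to 0.41 and the limma adjusted p 0.0521 to 0.0825. It was also lost in a fit of the 2 CR groups alone (limma adjusted p = 0.0823). The older CR mice were on average lower than the older AL mice, with means of 11.4 ± 1.63 against 13.4 ± 1.84 FPKM (SD, n = 6 each). The log2 difference of -0.23 ± 0.10 (SE, unadjusted p = 0.0259) did not pass, with a limma adjusted p of 0.226. The interaction for Foxo3 was -0.19 ± 0.14 (SE), with a 95% interval from -0.49 to 0.11, so a smaller rise under CR was not shown. At 5 months the diets differed by -0.04 (95% interval -0.26 to 0.18). Against 5 month AL mice, 15 month CR mice were 0.36 ± 0.10 higher (SE, limma adjusted p = 0.0537). That difference passed without AL library 0 at 5 months, AL library 2 at 15 months or CR library 2 or 4 at 15 months, at 0.36 to 0.41 with limma adjusted p values of 0.0279 to 0.0390.

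The rise of Foxo3 in AL mice was as large with marker scores as covariates. It was 0.66 ± 0.16 (SE) with the region score, 0.67 ± 0.14 with the CA1 score, 0.63 ± 0.12 with the dentate granule cell score and 0.72 ± 0.10 with the oligodendrocyte score. The limma adjusted p was 0.190 with the region score, under which 0 of all 16978 genes passed in this comparison and 1973 had an unadjusted p under 0.05, and it was at most 0.0228 with the other 3. In CR mice the call was lost with 3 of the scores. The difference was 0.45 ± 0.13 (SE) with the region score (limma adjusted p = 0.139), 0.45 ± 0.12 with the CA1 score (0.0528) and 0.34 ± 0.16 with the choroid plexus score (0.737), under which 0 of all genes passed in this comparison and 1150 had an unadjusted p under 0.05.

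Foxo4 (chrX:101254528-101260873, plus strand, GRCm38) encodes a FoxO factor known from cell cycle control and from senescent cells. In AL mice it was 8.82, 8.33, 9.36, 9.83 and 9.91 FPKM at 5 months and ran from 6.14 over 7.25 to 7.997 FPKM at 15 months. The groups did not overlap, and Foxo4 fell by 0.36 on the log2 scale (SE 0.11, 0.779-fold), with a limma adjusted p of 0.0282 and an exact permutation p of 0.00216. The call was lost without AL library 2, 3 or 4 at 5 months or library 2 at 15 months, where the difference was -0.35 to -0.32 and the limma adjusted p 0.0575 to 0.0689.

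In CR mice Foxo4 was 8.78, 11.6, 8.84, 9.13 and 10.4 FPKM at 5 months and ran from 6.78 over 9.67 to 11.1 FPKM at 15 months. Young and old overlapped throughout, and the age difference was -0.08 ± 0.11 (SE, limma adjusted p = 0.767). At 15 months 5 of 6 CR mice lay above the AL median, and 4 of 6 above every AL mouse. The log2 difference of CR against AL was 0.35 ± 0.11 (SE, 1.28-fold), with an unadjusted p of 0.0034, a limma adjusted p of 0.111 and an exact permutation p of 0.0260. It passed when CR library 0 or 4 at 15 months was left out, at 0.40 and 0.44 with limma adjusted p values of 0.0453 and 0.0417. 15 month CR mice differed from 5 month AL mice by -0.01 (95% interval -0.24 to 0.23). The interaction of 0.28 ± 0.16 (SE, unadjusted p = 0.0887, limma adjusted p = 0.678) did not pass, so a difference between the diets in the age change was not shown.

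CA1 marker scores varied in the same libraries. The lowest Foxo4 of all 22 libraries, 6.14 FPKM in an older AL mouse, stood beside a CA1 score of 4.53, while the older AL mice with scores of 3.36 and 3.39 both had 7.10 FPKM. The older CR mouse lowest for Foxo4, at 6.78 FPKM, also had the lowest CA1 score, 3.12, and the older AL mice had CA1 scores of 3.36 to 5.12 against 5.27 to 6.43 at 5 months. With the CA1 score as a covariate the AL age difference in Foxo4 was -0.05 ± 0.12 (SE) and with the region score -0.07 ± 0.15. With the oligodendrocyte score it was -0.16 ± 0.09. The call of Foxo4 with age in AL mice was lost with each of these scores, and also with the choroid plexus and dentate granule cell scores. The 8 oligodendrocyte genes summed to 1171 to 1844 FPKM in 5 month AL mice, 803 to 1776 in 5 month CR mice, 570.5 to 1253 in 15 month AL mice and 422 to 2050.3 in 15 month CR mice. For CR against AL at 15 months the Foxo4 difference was 0.24 ± 0.09 with the CA1 score, 0.23 ± 0.11 with the region score and 0.36 ± 0.08 with the oligodendrocyte score, where the limma adjusted p was 0.0355.

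**Figure D3:**
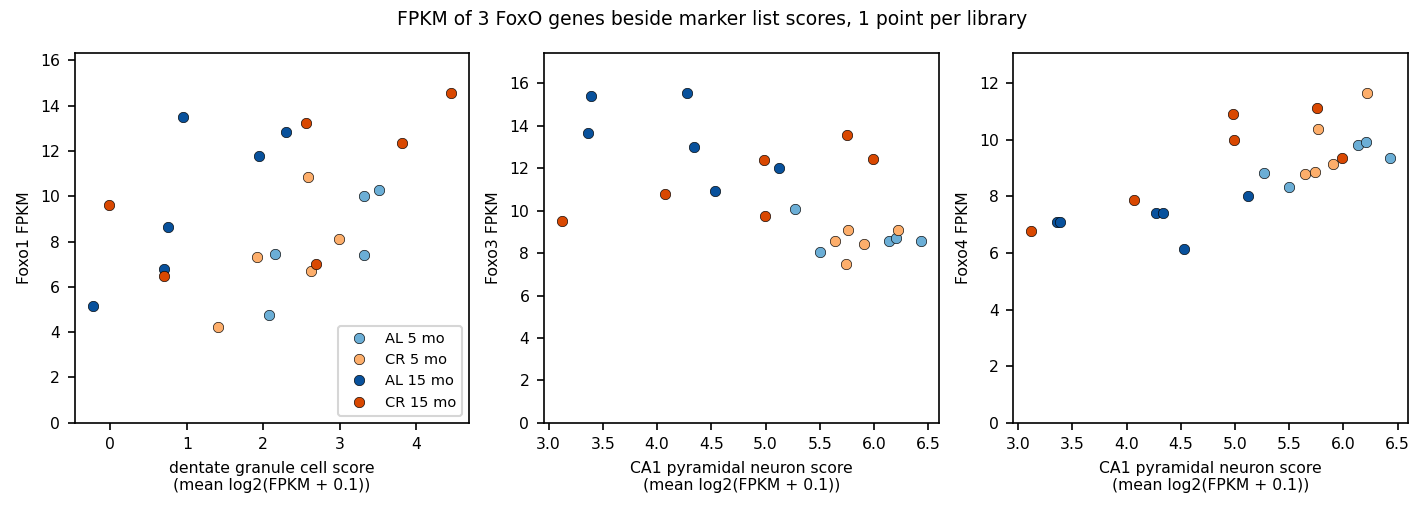
FPKM of Foxo1, Foxo3 and Foxo4 (y axes, starting at 0) against the mean log2(FPKM + 0.1) of a marker list (x axes), with 1 point per library in the colour of its group. Foxo4 is 6.78 FPKM in the older CR mouse with the lowest CA1 score and 6.14 FPKM, its lowest, in an older AL mouse with a score of 4.53, the libraries highest for Foxo3 include older mice at both low and high CA1 scores, and the older CR mouse with the highest dentate granule cell score, 4.46, has the highest Foxo1, 14.6 FPKM.

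Foxo1 (chr3:52268336-52353221, plus strand, GRCm38) encodes the FoxO factor best known from insulin control of liver metabolism, and in the hippocampus its mRNA is strong in dentate granule cells. It was 9.99, 10.3, 4.74, 7.41 and 7.43 FPKM in 5 month AL mice and 10.8, 4.23, 7.30, 6.68 and 8.13 FPKM in CR mice. At 15 months it ran from 5.15 over 10.2 to 13.5 FPKM in AL mice and from 6.48 over 11.0 to 14.6 FPKM in CR mice. All groups overlapped, and the coefficient of variation was 28.3% to 35.0% within groups, 3.44-fold between the lowest and the highest library of all 22. The age difference was 0.26 ± 0.28 (SE, limma adjusted p = 0.543) in AL mice and 0.49 ± 0.28 (adjusted p = 0.374) in CR mice. Between the diets it was -0.11 (95% interval -0.73 to 0.51) at 5 months and 0.12 (-0.44 to 0.69) at 15 months.

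Dentate granule cell markers varied in the same libraries. The 6 genes of that list summed to 27.8 to 75.1 FPKM in 5 month AL mice, 19.5 to 51.6 in 5 month CR mice, 9.44 to 48.2 in 15 month AL mice and 12.9 to 141 in 15 month CR mice. In 3 of the 4 groups the mouse lowest for Foxo1 also had the lowest dentate score of its group, and in 15 month CR mice its score of 0.70 was the next to lowest. With that score as a covariate the age difference of Foxo1 in AL mice was 0.79 ± 0.26 (SE), with a limma adjusted p of 0.0749. Both diet differences then changed sign, to 0.05 at 5 months and -0.25 at 15 months. Foxo1 overlaps the antisense gene Gm20402.

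Foxo6 (chr4:120267079-120287349, minus strand, GRCm38) encodes the FoxO factor that is found mainly in brain and acts in memory consolidation. In the 5 month CR mice it was 19.8, 22.2, 16.4, 19.0 and 14.1 FPKM, against 14.6, 9.83, 10.5, 13.1 and 14.1 FPKM in the AL mice. Every CR mouse lay above the AL median, and the group means were 18.3 ± 3.13 and 12.4 ± 2.16 FPKM (SD, n = 5 each). The log2 difference of 0.55 ± 0.26 (SE, 1.47-fold) had an unadjusted limma p of 0.0485, the only one of the 9 members under 0.05 in limma between the diets at 5 months. Its limma adjusted p was 1 and its exact permutation p was 0.0238, where the smallest possible is 0.00794.

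At 15 months Foxo6 ran from 5.45 over 10.7 to 13.7 FPKM in AL mice and from 6.84 over 12.2 to 21.2 FPKM in CR mice. The log2 difference of 0.39 ± 0.24 (SE) had a limma adjusted p of 0.424, and 5 of 6 CR mice lay above the AL median. With age Foxo6 differed by -0.39 ± 0.25 (SE) in AL mice and by -0.55 ± 0.25 in CR mice, with limma adjusted p values of 0.283 and 0.251. It was the member with the widest range over all libraries, 4.07-fold from 5.45 to 22.2 FPKM.

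The 4 FoxO genes together summed to 38.4 ± 3.91 FPKM (SD, n = 5) in 5 month AL mice, 44.0 ± 3.46 (n = 5) in 5 month CR mice, 40.3 ± 5.66 (n = 6) in 15 month AL mice and 44.3 ± 6.21 (n = 6) in 15 month CR mice. Foxo3 made up 23.0% ± 1.70 (SD) of the sum in 5 month AL mice and 34.1% ± 7.94 at 15 months. Foxo6 made up 41.4% ± 4.90 in 5 month CR mice and 24.1% ± 6.42 in 15 month AL mice. These sums and shares restate the levels above and were not tested.

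**Figure D4:**
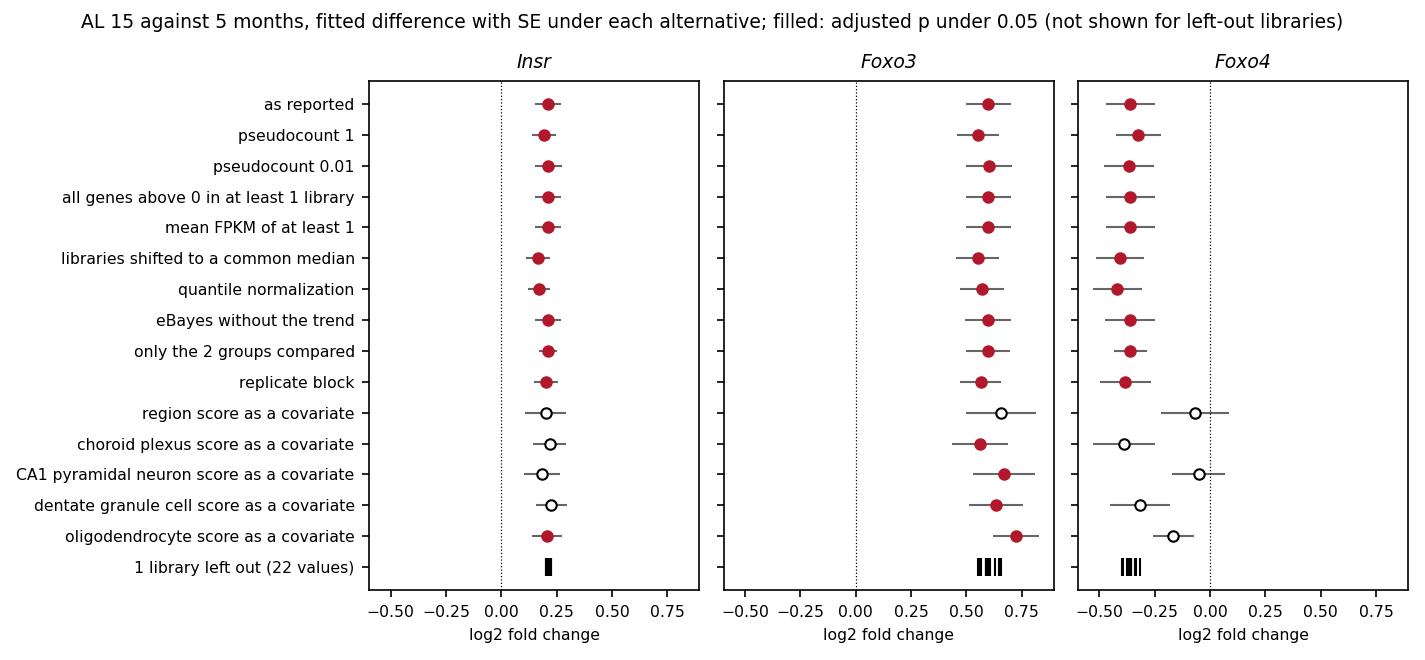
Fitted log2 fold change between 15 and 5 months in AL mice (x axis) for Insr, Foxo3 and Foxo4 under each way of processing (y axis), with SE as bars, filled points for a limma adjusted p under 0.05, and the 22 fits that leave out 1 library as ticks. Foxo3 stays between 0.55 and 0.72 and Insr between 0.16 and 0.23, whereas Foxo4 moves from -0.42 to -0.05.

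Profiles most like those of the 3 called members were sought among 13838 genes with a mean of at least 1 FPKM, by the root mean square difference between centred log2 profiles over the 22 libraries. For Foxo3, whose own profile had a root mean square of 0.306, they were Phf17 (difference 0.140), Ppp4r1 (0.144) and Rfx7 (0.145). For Insr (0.129) they were Taf2 (0.0623), Epg5 (0.0640) and Ncapd3 (0.0650). For Foxo4 (0.241) they were Mettl7a1 (0.124), Mon1a (0.136) and Rxrb (0.137). Mettl7a1 averaged 20.1 FPKM in AL mice and 22.9 in 5 month CR mice, and 15.1 and 20.5 at 15 months, the same order of groups as for Foxo4. These are descriptions of likeness over libraries that share the marker shifts given above.

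Around the 9 genes, 81 further genes of the pathway in 7 lists were followed, of which 75 were tested. With age in AL mice 15 of the 75 rose and 5 fell, with a median log2 fold change of 0.08, beside 10.7% and 9.97% of all tested genes. In CR mice 1 rose with age and 1 fell, beside 1.1% and 2.26% of all tested genes. Between the diets 0 of the 75 passed at 5 months in limma, beside 0% of all genes. At an unadjusted limma p under 0.05 there were 4 of the 75 and 789 genes of all. At 15 months 2 rose in CR, beside 0.742% of all genes in either direction. In 15 month CR mice against 5 month AL mice 1 rose, beside 3.12% of all genes in either direction. The interaction passed for 0 of the 75 in limma, with 7 at an unadjusted p under 0.05 and 1301 genes of all.

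**Figure D5:**
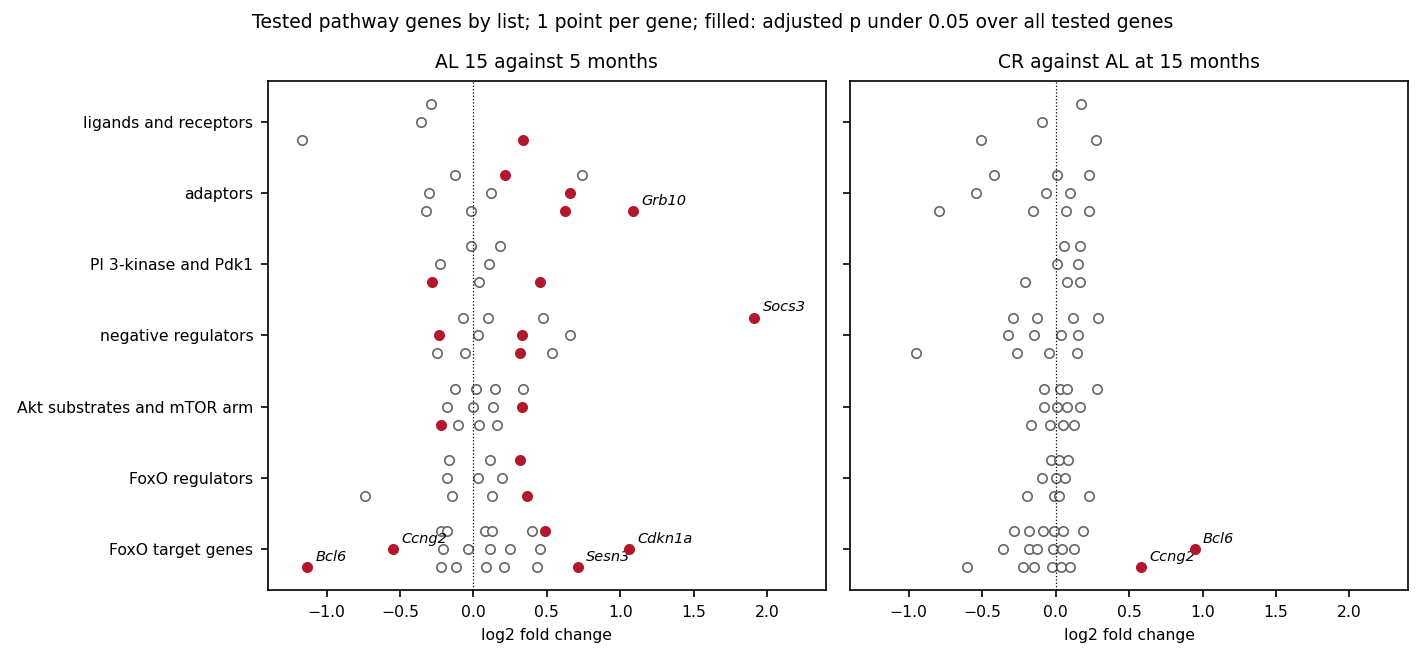
Log2 fold change (x axis) of the 75 tested pathway genes by list (y axis, points offset only to separate them) for age in AL mice and for CR against AL at 15 months, with filled points for a limma adjusted p under 0.05. Filled points with age include Socs3 at 1.91 and Bcl6 at -1.13, and the only filled points for diet are Bcl6 at 0.95 and Ccng2 at 0.58.

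Of the ligands and receptors, 4 of 6 were tested, and Igf1r, the receptor of insulin-like growth factor 1, was the only one to rise with age in AL mice, from 5.91 ± 0.462 to 7.53 ± 1.07 FPKM (log2 0.33, SE 0.11, limma adjusted p = 0.0360). The Igf1r difference was 0.20 ± 0.17 (SE) with the region score. Ins1 was listed at 0 in all 22 libraries. Ins2 fell by 2.42 on the log2 scale with age in CR mice (SE 0.63, limma adjusted p = 0.0367), at levels of 1.49 ± 2.03 FPKM at 5 months, where 1 mouse reached 5.01 FPKM, and 0.0769 ± 0.0661 FPKM at 15 months. The 8 choroid plexus markers summed to 121 to 2292 FPKM in 5 month CR mice and to 2.30 to 32.8 FPKM at 15 months. With the choroid plexus score as a covariate, under which 0 of all genes passed in this comparison in limma and 1150 had an unadjusted p under 0.05, the Ins2 difference turned to 0.43 ± 0.58 (SE).

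Of the 10 adaptors 4 rose with age in AL mice and none fell, beside 10.7% and 9.97% of all tested genes. The counts of the following lists for age in AL mice stand against the same shares. Grb10, which binds the insulin receptor and dampens its signal, rose most, from 7.62 ± 0.761 FPKM (SD, n = 5) to 16.3 ± 2.35 (n = 6), a log2 fold change of 1.08 ± 0.18 (SE, limma adjusted p = 6.0e-04), and 0.58 ± 0.24 with the region score as a covariate. Of the 7 genes for PI 3-kinase subunits and Pdk1, 1 rose and 1 fell with age in AL mice. The rise was that of Pik3r1, a regulatory subunit of PI 3-kinase, at 0.45 ± 0.13 (SE, limma adjusted p = 0.0172), and 0.20 ± 0.19 with the region score. The fall was that of Pik3cb, a catalytic subunit, from 10.1 ± 0.477 to 8.28 ± 0.907 FPKM (log2 -0.29, SE 0.10, limma adjusted p = 0.0405). The Pik3cb difference was -0.28 ± 0.15 (SE) with the region score.

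Among the called pathway genes the largest log2 fold change with age in AL mice was that of a negative regulator. Of 12 tested, 3 rose and 1 fell with age in AL mice, and Socs3, a suppressor of cytokine signaling that also blocks the insulin receptor and Irs proteins, rose from 0.462 ± 0.105 to 1.99 ± 0.187 FPKM (log2 1.91, SE 0.31, limma adjusted p = 5.1e-04). With the region score its difference was 0.93 ± 0.38 (SE). Phlpp1, a phosphatase that removes phosphate from Akt, fell by 0.23 on the log2 scale (SE 0.08, limma adjusted p = 0.0363), and its difference was -0.03 ± 0.10 with the region score. With age in CR mice 1 of the 12 rose, beside 1.1% of all tested genes. This was Inpp4b, a lipid phosphatase of the pathway, which went from 1.34 ± 0.189 to 2.87 ± 0.626 FPKM (log2 1.03, SE 0.18, limma adjusted p = 0.00215). Its difference was 1.06 ± 0.29 (SE) with the choroid plexus score, where the limma adjusted p was 0.378. With the region score it was 0.76 ± 0.21 (SE, limma adjusted p = 0.116). The call was kept with the CA1, dentate granule cell and oligodendrocyte scores.

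Among 12 Akt substrates and genes of the mTOR arm, Tsc1, part of the complex that restrains mTOR, rose with age in AL mice by 0.33 ± 0.09 on the log2 scale (SE, limma adjusted p = 0.0118). Rheb, the small GTPase that this complex switches off, fell by 0.22 (SE 0.07, limma adjusted p = 0.0415), and the other 10 did not pass. With the region score as a covariate the differences were 0.23 ± 0.13 (SE) for Tsc1 and -0.34 ± 0.11 for Rheb. Among 10 regulators of FoxO factors 2 rose and none fell, and the larger rise was that of Crebbp, an acetyltransferase that acts on FoxO factors, at 0.37 ± 0.13 (SE, limma adjusted p = 0.0493). The Crebbp difference was larger with the region score, at 0.72 ± 0.17 (SE, limma adjusted p = 0.190).

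Of 24 known FoxO target genes 20 were tested. With age in AL mice 3 rose and 2 fell, and the list's median log2 fold change was 0.10. Cdkn1a, a cell cycle inhibitor, rose from 3.92 ± 1.38 FPKM (SD, n = 5) to 7.91 ± 0.943 (n = 6), a log2 fold change of 1.06 ± 0.26 (SE, limma adjusted p = 0.00692), and 0.45 ± 0.36 with the region score. Bcl6, a transcriptional repressor, fell by 1.13 on the log2 scale (SE 0.19, limma adjusted p = 6.0e-04), from 22.4 ± 2.49 to 10.4 ± 2.46 FPKM, and its difference was -0.46 ± 0.21 with the region score. The shares of the list called in each direction lay near those of all tested genes.

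CR and AL mice differed at 15 months in 2 of the 20 targets, both higher in CR, beside 0.742% of all tested genes in either direction. Bcl6 averaged 20.5 ± 7.17 FPKM in CR mice and 10.4 ± 2.46 in AL mice (SD, n = 6 each), a log2 difference of 0.95 ± 0.18 (SE, limma adjusted p = 0.0272). Ccng2, an unconventional cyclin that rises in cells leaving the cycle, ran from 16.7 over 21.5 to 25.1 FPKM in AL mice and from 24.3 over 30.9 to 42.6 FPKM in CR mice, with 1 CR mouse inside the AL range. Its log2 difference was 0.58 ± 0.12 (SE, limma adjusted p = 0.0352). With the region score as a covariate these differences were 0.67 ± 0.15 for Bcl6 and 0.45 ± 0.12 for Ccng2, with adjusted p values of 0.136 and 0.224. With the dentate granule cell score, whose 6 genes had a median log2 difference of 1.14 between these groups and of which 0 passed, they were 0.74 ± 0.17 and 0.49 ± 0.13 (limma adjusted p = 0.152 and 0.202). With the CA1 score Ccng2 had a limma adjusted p of 0.0914, and with the 2 groups alone 0 of all genes passed in limma and 2003 had an unadjusted p under 0.05. Sesn3 is a stress-induced regulator of the mTOR arm. Between 15 month CR mice and 5 month AL mice it was the only 1 of the 20 targets called, beside 3.12% of all tested genes. Its log2 difference was 0.58 ± 0.14 (SE, limma adjusted p = 0.0261), and with age in AL mice it rose by 0.71 ± 0.14 (0.00177). With the region score the first difference was 0.37 ± 0.15 (limma adjusted p = 0.300). That call was also lost with the choroid plexus, CA1 and oligodendrocyte scores (0.215, 0.141 and 0.0825). It was kept with the dentate granule cell score (0.0137).

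The insulin response element core stands in its reverse form CAAAACA just before the start of Ccng2, the target shown here because, of the pair called in both the AL age and the diet comparison (with Bcl6), its window held the match. Capitals mark the match at -16.
Ccng2 chr5:93267532-93267572, plus strand, -41 to -1 (GRCm38.p6): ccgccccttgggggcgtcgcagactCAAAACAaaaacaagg

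Of the 24 targets 21 had a window, and 5 of these held the FoxO consensus and 3 the core. Over all windows the shares were 3.65% and 6.28%. Those shares count windows, whereas a target counts if any of its windows matches, so an excess among the targets was not tested. Of the 3 targets with the core only Ccng2 passed the filter for testing. Bcl6 held neither in its window, and the windows of Foxo1 and Foxo3 held neither of them nor the E-box. With the region score as a covariate 0 of the 20 pathway genes called with age in AL mice passed, and 19 kept their sign. With the CA1 score 3 passed and all 20 kept their sign.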

How the data were processed

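Messenger RNA of dissected CA1 was sequenced in 22 libraries, 5 per diet at 5 months and 6 per diet at 15 months, grouped by the submitters' titles. The values are FPKM as deposited by the authors, 1 column per library. The authors' tools were TopHat (alignment to mm10), Picard (duplicates) and Cufflinks (FPKM, with its bias and multi-read options on), and the submitters' processing notes also name bcl2fastq. The annotation release is not given in the sources used here. The kit does not keep strand. Read counts behind single values are unknown, so no counting interval is given and precision comes from the spread between libraries.

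Tests were run on log2(FPKM + 0.1) for genes that averaged 0.1 FPKM or more, which understates changes of low genes. R 4.3.3 and its package limma 3.58.1 fitted the 4 groups in 1 model, with eBayes moderation along an intensity trend, and p values were two-sided and adjusted by Benjamini-Hochberg over 16978 genes within each comparison. Exact permutation tests used all divisions of the libraries of 2 groups. There were 45 such tests on the members (9 genes, 5 comparisons), and the p printed is unadjusted. The fit was also run on simulated data, drawn gene by gene, with planted changes larger than any fitted for a member. That run does not show how well changes of the members' size are found. Python 3.11.15 was used for tables (pandas 2.3.3, numpy 2.4.6) and plots (matplotlib 3.10.9). Gene positions are from GENCODE M21 (GRCm38, the assembly of mm10), and promoter windows are from RefSeq on GRCm38.p6.

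The members and all lists were chosen with earlier results of these data known. The named genes are the 9 members, in each pathway list and comparison the called genes with the largest rise and the largest fall, and for each called member the 3 genes of closest profile. A further gene of the pathway is not reported here. Ccng2 was named in addition, after its values had been seen. A marker score is the mean log2(FPKM + 0.1) over a list. The lists covered CA1 and CA3 pyramidal neurons, dentate granule cells, neocortex and subiculum, thalamus, choroid plexus, excitatory neurons, interneurons, oligodendrocytes, astrocytes, microglia, endothelium and erythrocytes. Nothing showed that equal library numbers mark matched mice: among 31 pairs of equal number, deviations from the group means correlated at -0.139 to 0.163, with 2 pairs above 0.1.

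Alternatives were a pseudocount of 1 or 0.01, no filter beyond a value above 0 or a mean FPKM of at least 1, quantile normalization, a shift of each library to 1 median, eBayes with no trend, the 2 groups alone, the replicate block, the region or choroid plexus score as a covariate, medians for means, and each library left out in turn. The CA1, dentate granule cell and oligodendrocyte scores as covariates were added after seeing the data.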

Additional observations from a re-analysis of the deposited data

How the results depend on the processing

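Of the 9 members, the number called with age in AL mice was 3 under the rescalings, filters, pseudocounts and variance model tried and in the fit of 2 groups alone. It was 2 to 3 with a library left out, 2 with the oligodendrocyte score as a covariate, 0 with the region score and 1 each with the choroid plexus, CA1 and dentate granule cell scores. With age in CR mice it was 0 in place of 1 with 2 groups alone and with the region, choroid plexus or CA1 score, and 0 to 2 when single libraries were left out. For CR against AL at 15 months it was 1 in place of 0 with the oligodendrocyte score and 0 to 1 with a library left out. For 15 month CR mice against 5 month AL mice it was 1 with the oligodendrocyte score and 0 to 2 with a library left out. The cause of these changes was not tested. With the replicate block the age difference of Foxo3 in AL mice was 0.56 and no call of a member changed, and 5 of 22 libraries correlated best with a library of their own number.

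Signs of differences that had not passed reversed as follows, on the log2 scale. With the region score Irs1 was -0.0079 for age in CR mice and 0.067 for diet at 15 months, Irs2, Akt1 and Akt2 were 0.049, 0.22 and 0.16 for age in AL mice, Akt1 was -0.017 for diet at 5 months, and Foxo4 was 0.12 for age in CR mice and 0.17 for the older CR against the younger AL mice. With the CA1 score Irs1 was 0.027 for diet at 15 months, Irs2, Akt1 and Akt2 were 0.16, 0.15 and 0.14 for age in AL mice, and Foxo4 was 0.11 for age in CR mice and 0.19 for older CR against younger AL mice. With the dentate granule cell score Akt2 was 0.023 for age in AL mice, Foxo1 was 0.055 and -0.25 for diet at 5 and 15 months, and Foxo4 was 0.0063 for older CR against younger AL mice. With the oligodendrocyte score Irs2 was 0.039 for age in AL mice, Foxo3 was 0.029 for diet at 5 months, and Foxo4 was 0.012 for age in CR mice and 0.19 for older CR against younger AL mice. A common median and quantile normalization gave 0.0040 and 0.078 for Irs1 in diet at 15 months, and 0.025 and 0.010 for the interaction of Insr.

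With 1 library left out the ranges across 0 were -0.11 to 0.076 for Irs1 (diet at 15 months), -0.068 to 0.041 and -0.19 to 0.011 for Irs2 (age in AL and in CR mice), -0.00019 to 0.095 and -0.020 to 0.061 for Akt1 (age in CR mice and diet at 5 months), -0.28 to 0.074 and -0.042 to 0.25 for Foxo1 (diet at 5 and 15 months), -0.074 to 0.0067 for Foxo3 (diet at 5 months), -0.13 to 0.010 and -0.060 to 0.081 for Foxo4 (age in CR mice and older CR against younger AL mice) and -0.042 to 0.030 for the interaction of Insr.

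Over all 16978 genes, 3502 were called with age in AL mice (2382 to 3919 with a library left out, 1623, 1145, 696 and 0 with the choroid plexus, dentate granule cell, CA1 and region scores). With age in CR mice 570 were called (331 to 775 with a library left out, 324 with 2 groups alone, 304 at a mean FPKM of at least 1, and 337, 82 and 0 with the CA1, region and choroid plexus scores). For diet at 15 months 126 were called (15 to 732 with a library left out, 323 with the replicate block, 0 with 2 groups alone, 77 after quantile normalization, and 17, 12 and 6 with the CA1, dentate granule cell and region scores). For older CR against younger AL mice 529 were called (181 to 925 with a library left out, 340 at a mean FPKM of at least 1, 218 with 2 groups alone, and 293, 54 and 45 with the CA1, region and choroid plexus scores). Shifting libraries to a common median turned 1809 higher and 1693 lower genes with age in AL mice into 1441 and 2286, and 56 higher and 70 lower in CR at 15 months into 87 and 51. Depth is unknown, so what the number of reads limits could not be measured.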

Other observations

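Genes of other marker lists were also called with age in the same libraries. Of all tested genes 10.7% rose and 9.97% fell with age in AL mice, and 1.1% rose and 2.26% fell in CR mice. A count of 1 gene in a list does not show that the list moved. Of 8 choroid plexus genes 4 fell in AL mice (median log2 fold change -2.24) and 7 fell in CR mice (median -3.84). In AL mice 2 of 6 dentate granule cell genes, 2 of 4 excitatory neuron genes, 1 of 8 oligodendrocyte genes and 1 of 8 microglia genes fell, 1 of 4 tested thalamus genes rose, and 1 rose and 1 fell among the 5 CA3 and among the 7 astrocyte genes. In CR mice 1 of 4 excitatory neuron genes fell. No interneuron, endothelium or erythrocyte gene was called by limma in either age comparison. None of these lists had a gene called between the diets, beside 0% of all genes at 5 months and 0.742% at 15 months.

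Among the insulin-like growth factors, Igf2 averaged 55.0 ± 77.9 FPKM (SD, n = 5) in 5 month CR mice, where 1 mouse reached 190.1 FPKM and the median was 11.0 FPKM. The choroid plexus score of CR mice at that age ran from 0.95 to 5.63. In 5 month CR library 3 Igf2 was 54.2 FPKM at a score of 3.59, and in 15 month AL library 1 it was 55.1 FPKM at -0.78. A link between Igf2 and that score was not tested. Igf1 averaged between 1.78 ± 0.262 FPKM (15 month AL mice, n = 6) and 2.19 ± 0.235 FPKM (5 month AL mice, n = 5).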
